A study of Mus musculus with 31 samples.

Results

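The 8 genes described here mark glutamatergic neurons, and most of them mark the projection neurons of the cerebral cortex: Slc17a7, Slc17a6, Cux2, Tbr1, Neurod2, Neurod6, Bcl11b and Fezf2. They were taken by name from the gene symbols of a count table of 48795 genes, and all 8 were found. Bcl11b carries its older name Rit1 in that table, a symbol that a different gene in the table also carries, so it was identified by its Ensembl identifier, ENSMUSG00000048251. Mouse brains were split, and total RNA from a homogenate of 1 part of each was sequenced in 31 libraries, 13 labelled control and 18 labelled deltamethrin. Deltamethrin is an insecticide of the pyrethroid class, whose targets are the sodium channels of nerve cells. The study asked how exposure during development alters transcription in the brain. The labels give no strain, sex, age, litter, dose, route or control treatment for either group. They do not say which side or which regions of the brain were taken. The tests took the libraries as independent, and whether any of them share a litter is not known. The labels list each library as a separate sample and do not say whether the samples are separate animals, so p-values measure the spread between these samples.

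Glutamatergic neurons load the transmitter glutamate into synaptic vesicles with a vesicular transporter. Slc17a7 encodes VGLUT1, the main form in the cerebral cortex, the hippocampus and the granule cells of the cerebellum, and Slc17a6 encodes VGLUT2, the main form in thalamus, hypothalamus, midbrain and hindbrain. Cortical projection neurons are specified by transcription factors that differ between layers: Cux2 marks upper layers, Tbr1 marks early-born and deep corticothalamic neurons, and Fezf2 and Bcl11b mark deep neurons that project below the cortex. Bcl11b is also strong in the striatum. Neurod2 and Neurod6 are basic helix-loop-helix factors switched on as cortical glutamatergic neurons differentiate, and Neurod2 is also found in cerebellar granule cells.

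Promoter sequences of 4 members are shown, 2 that moved together across libraries (Slc17a7 and Neurod2) and 2 that moved against each other (Slc17a6 and Neurod6), with the correlations given further on. Each is the 250 bases before a RefSeq start site on GRCm38.p6, read 5′ to 3′ on the strand of the gene. Slc17a7 is at chr7:45163671-45163920 (plus strand), Slc17a6 at chr7:51621580-51621829 (plus), Neurod2 at chr11:98329646-98329895 (minus) and Neurod6 at chr6:55681264-55681513 (minus). Capitals mark an E-box CAGATG, a sequence bound by factors of the NeuroD family.
Slc17a7: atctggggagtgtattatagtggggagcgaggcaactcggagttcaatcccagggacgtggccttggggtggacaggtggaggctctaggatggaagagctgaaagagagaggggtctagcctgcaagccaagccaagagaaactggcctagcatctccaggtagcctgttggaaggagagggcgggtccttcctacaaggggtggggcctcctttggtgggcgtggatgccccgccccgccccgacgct
Slc17a6: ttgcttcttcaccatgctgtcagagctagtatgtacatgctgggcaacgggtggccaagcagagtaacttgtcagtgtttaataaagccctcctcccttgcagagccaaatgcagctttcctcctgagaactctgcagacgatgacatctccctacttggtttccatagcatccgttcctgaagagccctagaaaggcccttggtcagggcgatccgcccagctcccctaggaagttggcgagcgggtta
Neurod2: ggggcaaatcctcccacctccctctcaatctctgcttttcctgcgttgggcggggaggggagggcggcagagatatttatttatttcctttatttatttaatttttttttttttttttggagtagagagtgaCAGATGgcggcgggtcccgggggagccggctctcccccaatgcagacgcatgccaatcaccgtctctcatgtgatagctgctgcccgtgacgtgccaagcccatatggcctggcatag
Neurod6: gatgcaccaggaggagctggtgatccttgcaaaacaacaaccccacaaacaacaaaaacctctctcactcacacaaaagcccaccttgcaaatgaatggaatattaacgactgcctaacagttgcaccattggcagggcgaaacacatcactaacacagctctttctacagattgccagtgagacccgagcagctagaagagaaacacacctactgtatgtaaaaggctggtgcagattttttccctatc
All 8 members matched the RefSeq table, with 10 start sites. On either strand CAGATG was found in 3 of the 10 windows, 1 each of Neurod2, Cux2 and the second start of Slc17a6, against 14.4% of 32851 promoter windows of the same length. In Neurod2 the match began 118 bases before the start site. The E-box CAGCTG (13% of all windows) and the T-box sequence GGTGTGA (3.33%) were in 0 of the 10. A match is a string of letters and shows no binding, and a missing match says only that those letters are not in that window.

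Control libraries held 17570311 to 35716869 counts and deltamethrin libraries 24563143 to 38680621. The 2 mitochondrial ribosomal RNAs took 8.49 to 40.2% of the counts in control (median 12.9%) and 7.32 to 26.3% in deltamethrin (median 14.8%). Control replicate 2 stood apart, with the lowest total and the highest mitochondrial share, and it was the lowest control library for Slc17a7, Cux2, Tbr1 and Neurod2. Without it 0 of the 8 members passed, adjusted or unadjusted, and the log2 fold change of Slc17a7 was -0.12 and that of Slc17a6 0.25. The transporter ratio described further on then differed by -0.39 (permutation p = 0.0466), and 13 of 28 member pairs were correlated with or without it.

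None of the 8 genes separated control from deltamethrin after adjustment over all 19529 genes tested with edgeR's quasi-likelihood test. All 8 passed the filter on low counts, with 227 to 43759 counts per library. The number called at an adjusted p-value under 0.05 was 0 of 8, against 0% of all genes, and 0 of 8 at an unadjusted p-value under 0.05, against 4.37% of all genes (2% higher and 2.37% lower in deltamethrin). With DESeq2 the number called after adjustment was also 0, and 0 members had an unadjusted p-value under 0.05. With limma voom the number after adjustment was 0, and 1 member, Slc17a6, had an unadjusted p-value under 0.05 (0.0443). The members had a median log2 fold change of -0.011, with 4 higher and 4 lower in deltamethrin, beside a median of 0.0014 over all genes. Values are CPM, counts scaled to the library size with TMM factors, and fold changes are deltamethrin over control. In a bulk sample, fewer cells of a type and less RNA per cell cannot be told apart.

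**Figure D1:**
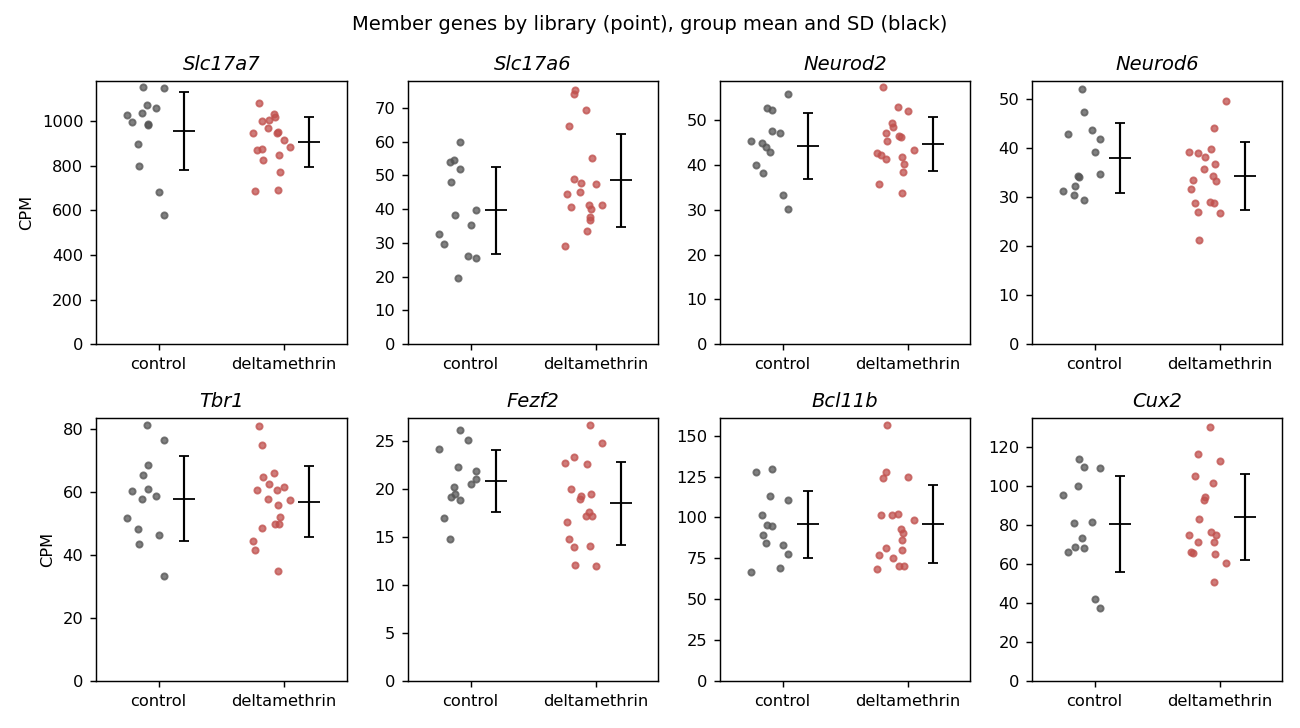
CPM of each of the 8 genes (vertical axes, each from 0) in the 13 control and 18 deltamethrin libraries; each point is a library, and the black mark and bar are the group mean and SD. The groups overlap for every gene, and Slc17a6 has the most deltamethrin libraries above the control median, 14 of 18.

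Slc17a7 (ENSMUSG00000070570, chromosome 7, 45163949 to 45176142, plus strand) had the highest level of the 8. In control it ran from 581 CPM in replicate 2 to 1152 CPM in replicate 6 with a median of 997, and in deltamethrin from 685 to 1083 CPM with a median of 932. The ranges overlapped, with all 18 deltamethrin libraries inside the control range and 13 of 18 below the control median. The means were 956 ± 174 CPM (SD, n = 13) and 907 ± 112 CPM (SD, n = 18), a log2 fold change of -0.08 ± 0.09 (SE; edgeR adjusted p = 0.852). Its 95% interval ran from -0.25 to 0.10.

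Slc17a6 (ENSMUSG00000030500, chromosome 7, 51622006 to 51671119, plus strand) had the largest estimated difference of the 8 and the widest spread. In control it ran from 19.6 CPM in replicate 1 to 59.8 CPM in replicate 9 with a median of 38.2. In deltamethrin it ran from 29.1 CPM in replicate 8 to 75.2 CPM in replicate 2 with a median of 44.9. The groups overlapped, with 14 of 18 deltamethrin libraries above the control median and 4 of 18 above the highest control. The means were 39.6 ± 12.9 (SD, n = 13) and 48.5 ± 13.8 CPM (SD, n = 18), a log2 fold change of 0.29 ± 0.15 (SE; edgeR unadjusted p = 0.0603, adjusted 0.813). The 95% interval ran from -0.0026 to 0.58. Without control replicate 1 the fold change was 0.23 (unadjusted p = 0.117).

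Neither of the NeuroD factors passed the test. Neurod2 (ENSMUSG00000038255, chromosome 11, 98325415 to 98329648, minus strand) ran from 30.3 to 55.9 CPM in control (median 45) and from 33.7 to 57.4 CPM in deltamethrin (median 44.4). Its groups nearly coincided, with a log2 fold change of 0.01 ± 0.08 (SE; edgeR adjusted p = 0.969) and a 95% interval from -0.14 to 0.17. Neurod6 (ENSMUSG00000037984, chromosome 6, 55677822 to 55681263, minus strand) ran from 29.3 to 52.1 CPM in control (median 34.7) and from 21.2 CPM in replicate 2 to 49.5 CPM in replicate 17 in deltamethrin (median 33.9). Of 18 deltamethrin libraries 6 lay outside the control range, all of them below it, although the medians were close. The log2 fold change of Neurod6 was -0.15 ± 0.10 (SE; edgeR adjusted p = 0.813).

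Among the deep-layer factors, Fezf2 had the lowest fold change of the 8 and the other members of the group lay near 0. Fezf2 (ENSMUSG00000021743, chromosome 14, 12342094 to 12348189, minus strand) ran from 14.8 to 26.2 CPM in control (median 20.5) and from 12 to 26.7 CPM in deltamethrin (median 18.3). The groups overlapped, 13 of 18 deltamethrin libraries were below the control median, and the log2 fold change was -0.17 ± 0.10 (SE; edgeR unadjusted p = 0.107, adjusted 0.813). Tbr1 (ENSMUSG00000035033, chromosome 2, 61802930 to 61814114, plus strand) ran from 33.3 to 81.3 CPM in control (median 58.9) and from 34.9 to 81.2 CPM in deltamethrin (median 57.7), with a log2 fold change of -0.03 ± 0.11 (SE; edgeR adjusted p = 0.957). Its 18 deltamethrin libraries all lay inside the control range. Bcl11b (chromosome 12, 107910403 to 108003602, minus strand) ran from 66.3 to 129 CPM in control (median 94.6) and from 68.2 to 156 CPM in deltamethrin (median 91.6), with a log2 fold change of 0.0043 ± 0.11 (SE; edgeR adjusted p = 0.994). Only deltamethrin replicate 2, the highest library, lay outside the control range of Bcl11b.

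The upper-layer factor Cux2 (ENSMUSG00000042589, chromosome 5, 121856366 to 122050102, minus strand) varied widely inside each group. It ran from 37.4 CPM in replicate 2 to 114 CPM in replicate 6 in control (median 80.9) and from 50.7 CPM in replicate 10 to 130 CPM in replicate 11 in deltamethrin (median 75.6). Across all libraries the highest was 3.48-fold the lowest, a spread second among the members to that of Slc17a6, at 3.84-fold. The log2 fold change of Cux2 was 0.06 ± 0.14 (SE; edgeR adjusted p = 0.925), so its SE was more than 2 times its size. The directions of Cux2, Tbr1, Neurod2 and Bcl11b were not stable: each changed sign when a single library was left out, as for Cux2 without control replicate 2 (-0.0014).

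Per kilobase of exon, Slc17a7 stood far above the other 7 genes. Its mean over the 31 libraries was 172 ± 26 CPM per kilobase (SD), 10.3-fold that of the next gene, Neurod6 (16.6 ± 3.31), and the ranges did not overlap. The order then ran through Neurod2 (14.2 ± 2.09), Bcl11b (11.8 ± 2.74), Tbr1 (10.47 ± 2.20), Slc17a6 (8.29 ± 2.58), Cux2 (8.18 ± 2.25) and Fezf2 (6.40 ± 1.31). From Neurod6 down, each neighbour overlapped the next in range. Slc17a6 and Cux2 were the closest, with Slc17a6 above in 16 of 31 libraries, while Neurod2 was above Bcl11b in 27 of 31. In control the mean of Slc17a6 (7.34 ± 2.39, n = 13) was below that of Cux2 (7.98 ± 2.44), and in deltamethrin it was above (8.98 ± 2.55 against 8.33 ± 2.17, n = 18), in each case by less than 1 SD.

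**Figure D2:**
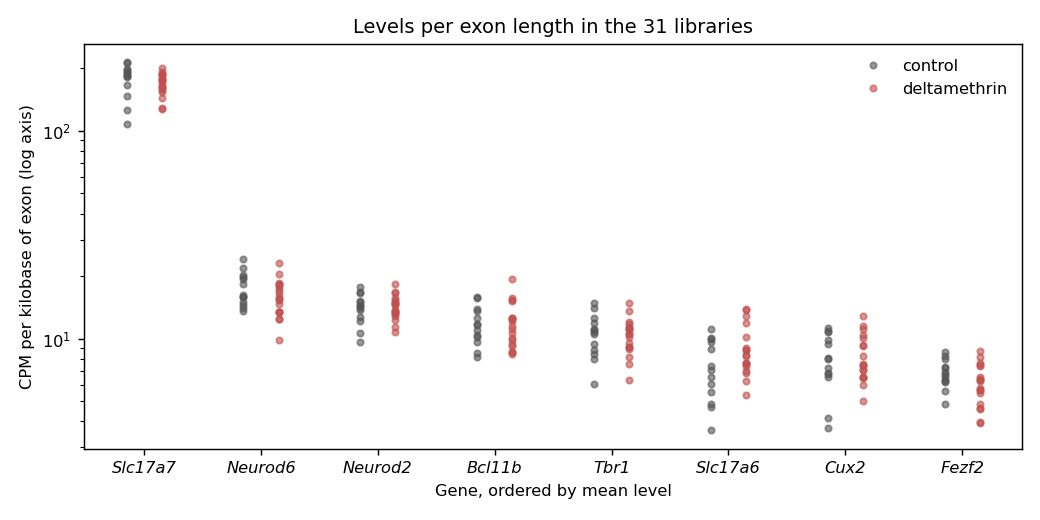
Level of each gene as CPM per kilobase of summed exon length (log axis) in each of the 31 libraries, grey for control and red for deltamethrin, with genes ordered by their mean. Slc17a7 lies between 108 and 214 CPM per kilobase in every library, and the other 7 genes lie between 3.62 and 24.2.

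The cortical and the subcortical transporter were then compared directly, as the log2 ratio of Slc17a7 to Slc17a6 within each library. The exon lengths of the pair are nearly equal (5392 and 5399 bases). VGLUT1 transcript was in excess in all 31 libraries, and the ratio was lower in deltamethrin by an amount at the edge of the test. In control the log2 ratio ran from 4.05 in replicate 9 to 5.77 in replicate 1 with a median of 4.51, which is 22.8-fold. In deltamethrin it ran from 3.46 in replicate 2 to 5.02 in replicate 8 with a median of 4.37, which is 20.7-fold. The groups overlapped over most of their range, 13 of 18 deltamethrin libraries were below the control median, and 6 of 18 were below the lowest control. The means were 4.64 ± 0.55 (SD, n = 13) and 4.26 ± 0.45 (SD, n = 18), a difference of -0.38 (two-sided permutation p = 0.0444, 100000 resamples, not adjusted).

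The difference stayed negative, from -0.43 to -0.28, when each library was left out in turn, but its p-value was above 0.05 in 14 of the 31 comparisons that each left out 1 library. Control replicate 1 moved it most, to -0.28 (permutation p = 0.103 without it). The others were control replicates 3 (p = 0.0731), 4 (0.0633), 6 (0.0669), 10 (0.0707) and 11 (0.0871) by the same permutation test. Among deltamethrin replicates they were 1 (permutation p = 0.0696), 2 (0.0711), 3 (0.0512), 4 (0.0608), 6 (0.0638), 10 (0.0512), 11 (0.0614) and 12 (0.0652). With the mitochondrial rRNA share as a covariate the difference was -0.35 (permutation p = 0.0453).

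The level of cerebellar markers varied between libraries, and several members moved with it. The summed level of 7 cerebellar granule cell markers, among them Cbln3, was lowest in control replicate 1 (68.8 CPM). It was second lowest in deltamethrin replicate 14 (107 CPM). The medians were 392 CPM in control and 423 CPM in deltamethrin, and the maxima 508 and 645 CPM. Whether brain regions other than the cerebellum add to this sum was not tested. All 7 markers had a positive fold change in deltamethrin (median 0.27), none was at 0 in every library, and 0 passed an unadjusted p of 0.05 by edgeR. Slc17a6 rose with that sum (Pearson r = 0.622, permutation p = 0.00016, adjusted 0.000768 over 24 correlations; Spearman rho = 0.573, permutation p = 0.00098, adjusted 0.00235). It was 0.536 after the 2 libraries farthest from the median were left out, 0.802 in control alone and 0.369 in deltamethrin alone, and 0.414 with the log2 mitochondrial rRNA share regressed out of both. Cux2 (r = 0.475, adjusted permutation p = 0.0165; rho = 0.619, adjusted 0.00114) and Neurod2 (r = 0.417, adjusted permutation p = 0.0403; rho = 0.629, adjusted 0.00088) were also higher where the sum was higher. With the mitochondrial share regressed out their r were 0.078 and 0.028. Neurod6 (r = -0.566, adjusted permutation p = 0.00246; rho = -0.535, adjusted 0.00513) and Fezf2 (r = -0.403, adjusted permutation p = 0.0417; rho = -0.401, adjusted 0.0401) were lower where it was higher, with r of -0.382 and -0.255 after that step. Tbr1 passed by rank only (r = 0.0896, adjusted permutation p = 0.658; rho = 0.399, adjusted 0.0401), and Bcl11b by neither (r = 0.198, rho = 0.338, adjusted permutation p = 0.362 and 0.0785). With the mitochondrial share regressed out, both turned negative, with r of -0.430 for Tbr1 and -0.199 for Bcl11b. For Slc17a7 no relation passed (r = 0.0606, permutation p = 0.746; rho = 0.144, permutation p = 0.438). Its r was 0.305 after the 2 farthest libraries were left out and -0.325 with the mitochondrial share regressed out. Without those 2 lowest libraries the difference in ratio was -0.31 (permutation p = 0.0839), and with the cerebellar sum as a covariate it was -0.27 (permutation p = 0.104).

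**Figure D3:**
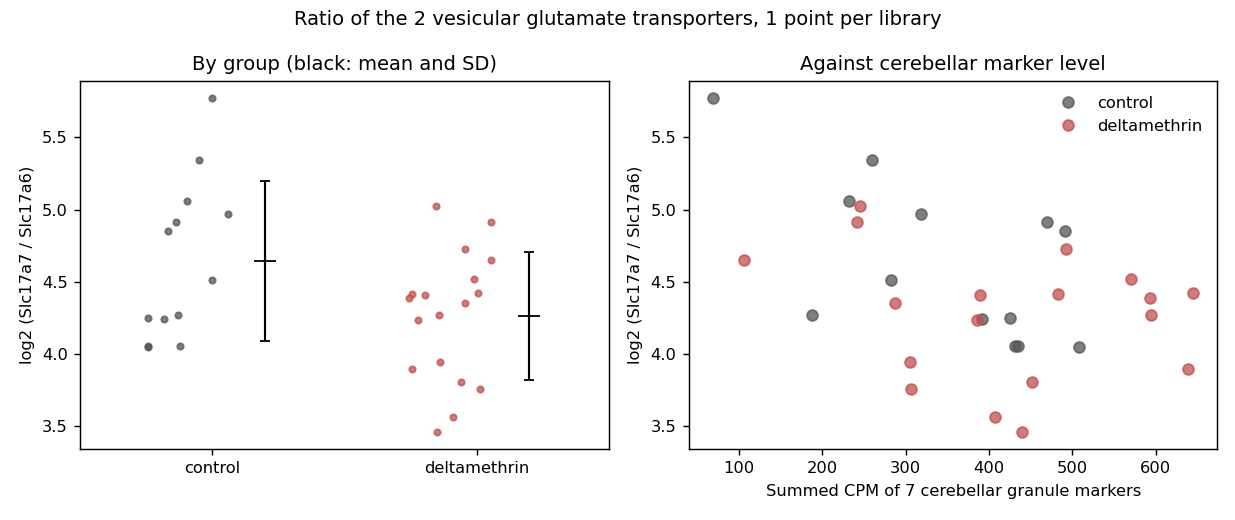
Left, log2 ratio of Slc17a7 to Slc17a6 (vertical axis) in each library by group, with the group mean and SD in black; right, the same ratio against the summed CPM of 7 cerebellar granule cell markers. The highest ratio, 5.77, belongs to the control library with the lowest cerebellar sum, 68.8 CPM.

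Across the 31 libraries the 8 genes did not rise and fall as 1 set. Of the 28 pairs, 13 were correlated in log2 CPM at an adjusted permutation p-value under 0.05, 9 positively and 4 negatively. Slc17a7, Neurod2, Cux2 and Tbr1 rose together. Neurod6 and Fezf2 formed a second pair, and Slc17a6 ran opposite to that pair. Some correlated pairs crossed these groups. Cux2 rose with Slc17a6 (r = 0.420, adjusted permutation p = 0.0398) and was opposed to Neurod6 (r = -0.448, adjusted permutation p = 0.0268). Bcl11b rose with Tbr1 (r = 0.605) and was opposed to Fezf2 (r = -0.468). Slc17a7 had r = 0.319 with Fezf2 (adjusted permutation p = 0.141) and 0.123 with Neurod6 (adjusted permutation p = 0.592), which turned on the processing. Without scaling factors both passed, at 0.525 (adjusted permutation p = 0.00377) and 0.394 (adjusted permutation p = 0.0461), and the value with Fezf2 also passed without control replicate 2 (0.426, adjusted permutation p = 0.0409).

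Within the larger group, Cux2 and Neurod2 were the most alike of all pairs (r = 0.863, rho = 0.821, each permutation p = 1e-05, the smallest the resamples can give; adjusted 5.6e-05 and 9.33e-05). Leaving out the 2 libraries farthest from the median of Cux2 gave 0.788, and the r was 0.867 within control and 0.859 within deltamethrin. Slc17a7 with Neurod2 had r = 0.837 and rho = 0.712 (each permutation p = 1e-05, adjusted 5.6e-05 and 9.33e-05), 0.748 after the 2 farthest were left out, 0.895 in control alone and 0.801 in deltamethrin alone. Slc17a7 also followed Tbr1 (r = 0.742, permutation p = 1e-05, adjusted 5.6e-05; rho = 0.616, permutation p = 0.00026, adjusted 0.00104) and Cux2 (r = 0.739, permutation p = 2e-05, adjusted 9.33e-05; rho = 0.600, permutation p = 0.00048, adjusted 0.00168). Those 2 values were 0.659 and 0.572 without the 2 farthest libraries. Within control they were 0.870 for Tbr1 and 0.882 for Cux2, and within deltamethrin 0.597 and 0.587. Libraries rich in VGLUT1 transcript were rich in these 3 cortical factors in both groups.

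Neurod6 and Fezf2 followed each other (r = 0.776, permutation p = 1e-05, adjusted 5.6e-05; rho = 0.749, permutation p = 2e-05, adjusted 0.00014), with 0.742 after the 2 farthest were left out, 0.473 in control alone and 0.884 in deltamethrin alone. Slc17a6 was low where Neurod6 was high (r = -0.660, permutation p = 4e-05, adjusted 0.00016; rho = -0.580, permutation p = 0.00078, adjusted 0.00243), with -0.519 after the 2 farthest were left out, -0.676 in control alone and -0.608 in deltamethrin alone. Slc17a6 and Fezf2 were also opposed (r = -0.534, permutation p = 0.00205, adjusted 0.00574; rho = -0.531, permutation p = 0.00256, adjusted 0.00717), with -0.460 without the 2 farthest, -0.328 within control and -0.608 within deltamethrin. Without scaling factors both oppositions fell short of the threshold, with r = -0.228 for Neurod6 (adjusted permutation p = 0.278) and -0.114 for Fezf2 (adjusted permutation p = 0.605). Slc17a7 and Slc17a6 showed no relation in these values (r = -0.0219, permutation p = 0.908, adjusted 0.941; rho = -0.172, permutation p = 0.354, adjusted 0.431), but r was 0.425 without scaling factors (adjusted permutation p = 0.0316).

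Members differed in how they moved with the share of counts taken by the 2 mitochondrial ribosomal RNAs. Cux2 was low where the log2 share was high (r = -0.813, permutation p = 1e-05, adjusted 0.00012; rho = -0.744, permutation p = 1e-05, adjusted 0.00024), with -0.708 after the 2 farthest were left out, -0.810 in control alone and -0.814 in deltamethrin alone. Neurod6 rose with it (r = 0.555, permutation p = 0.00124, adjusted 0.00331; rho = 0.590, permutation p = 0.00066, adjusted 0.00176), with 0.554 without the 2 farthest, 0.536 within control and 0.594 within deltamethrin. The r of Slc17a7 was -0.541 (permutation p = 0.00169, adjusted 0.00406; rho = -0.343, permutation p = 0.0596, adjusted 0.0785), with -0.271 after the 2 farthest libraries were left out, -0.681 in control alone and -0.378 in deltamethrin alone, so its size depended on those 2 libraries. The other coefficients were -0.746 for Neurod2, -0.681 for Slc17a6, -0.668 for Tbr1, -0.614 for Bcl11b and 0.380 for Fezf2, all past an adjusted permutation p of 0.05 except that of Fezf2 (0.0525). Their rho were -0.693, -0.666, -0.607, -0.631 and 0.441, all past an adjusted permutation p of 0.05, that of Fezf2 at 0.0258. These correlations were chosen after the data were seen.

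The members that rose with the mitochondrial share were 2 of the 3 with the least exon sequence, Neurod6 (2150 bases) and Fezf2 (3047 bases), while Neurod2 (3142 bases) fell with it. The most negative coefficient was that of Cux2, which has the most exon sequence (10082 bases). Over all 19529 genes tested, the median r with the share was 0.24 for the 9158 genes with under 3500 bases of exon and -0.33 for the 6691 genes with 5000 bases or more. Of all genes 5.84% had a lower r than Cux2 and 80.6% a lower r than Neurod6. These values across genes are descriptions, since genes of a library share its depth and composition, and the part of exon length in the correlations was not tested.

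With the log2 mitochondrial share regressed out of each gene, 16 of the 28 pairs passed an adjusted permutation p of 0.05, and 8 pairs passed both with and without this step. The sign of r changed in 12 pairs. Cux2 with Tbr1 fell from r = 0.688 to 0.334 and no longer passed (adjusted permutation p = 0.0967). The other pairs among Slc17a7, Neurod2, Cux2 and Tbr1 still passed. Slc17a7 and Slc17a6 were then opposed (r = -0.634, adjusted permutation p = 0.0006). Slc17a7 then rose with Fezf2 (r = 0.675, adjusted permutation p = 0.000373) and with Neurod6 (r = 0.606, adjusted permutation p = 0.000964). Slc17a6 had a negative r with each of the other 7 members, from -0.634 with Slc17a7 to -0.0781 with Bcl11b. Bcl11b had r = -0.490 with Cux2 (adjusted permutation p = 0.0129). Its r with the other 5 cortical genes, from -0.321 with Fezf2 to 0.331 with Tbr1, did not pass. Without this step Bcl11b with Tbr1 (r = 0.605, adjusted permutation p = 0.000871) and with Fezf2 (r = -0.468, adjusted permutation p = 0.0211) had passed.

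**Figure D4:**
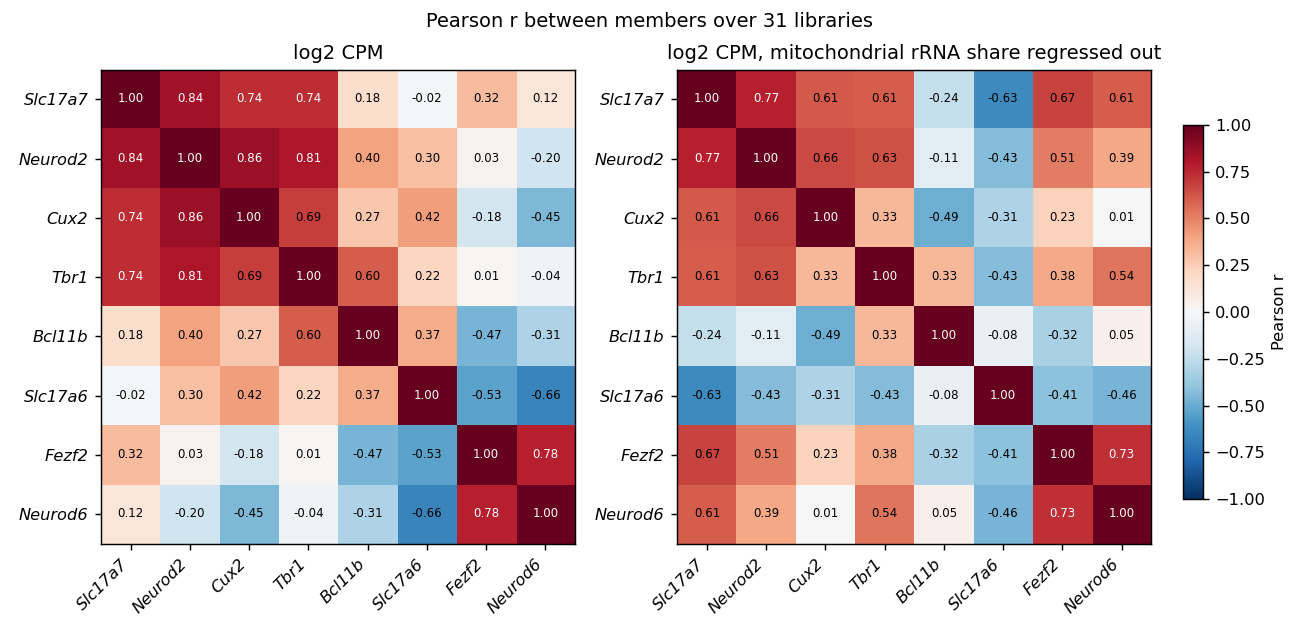
Pearson r between each pair of the 8 genes over 31 libraries, in log2 CPM (left) and with the log2 mitochondrial rRNA share regressed out of each gene (right); red is positive and blue negative. On the left Slc17a7, Neurod2, Cux2 and Tbr1 form a positive block, and on the right the row of Slc17a6 is negative with all other members.

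Among all genes tested, those whose log2 CPM over the 31 libraries was most like that of Slc17a7 were Stx1a (r = 0.932), which encodes a syntaxin of the presynaptic fusion machinery, Sprn (0.931), Pip4k2c (0.926), Sept5 (0.915) and Rtn4rl2 (0.913). Of the members Neurod2 ranked highest, at place 52. The genes most like Slc17a6 were Zfhx4 (r = 0.922), Glra1 (0.921), a glycine receptor subunit of brainstem and spinal cord, Tcf7l2 (0.921), a transcription factor of thalamic neurons, Ret (0.911) and Sparc (0.903). Slc17a7 ranked at place 10235 in that order. None of these 10 genes passed the group comparison, with edgeR adjusted p-values from 0.813 to 0.881.

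Striatal and other cell type markers were present in the libraries as well. The summed level of 9 striatal markers, among them Ppp1r1b, ran from 549 to 1055 CPM in control and from 444 to 1135 CPM in deltamethrin. All 9 had a negative fold change (median -0.16), and 1, Gpr6, had an unadjusted p-value under 0.05 by edgeR. For Bcl11b, which the striatum also expresses, no relation with that sum passed (r = 0.234, permutation p = 0.204; rho = 0.189, permutation p = 0.306). Its r was 0.509 in control alone, 0.077 in deltamethrin alone and 0.583 with the log2 mitochondrial share regressed out. Cux2 was lower where it was higher (r = -0.580, permutation p = 0.00082, adjusted 0.00246; rho = -0.646, permutation p = 0.00016, adjusted 0.00088). It was -0.550 after the 2 farthest were left out, -0.550 in control alone and -0.614 in deltamethrin alone. Neurod2 was also lower where the striatal sum was higher (r = -0.405, adjusted permutation p = 0.0417, and rho = -0.455, adjusted 0.0225). Its r was -0.326 after the 2 farthest were left out and -0.256 with the log2 mitochondrial share regressed out. Neurod6 was higher where that sum was higher by rank only (rho = 0.422, adjusted permutation p = 0.0329, and r = 0.368, adjusted 0.0594). Its r was 0.672 in control alone, 0.113 in deltamethrin alone and 0.238 with the mitochondrial share regressed out. For Slc17a7, Slc17a6, Tbr1 and Fezf2 neither measure passed. Of the other lists, 7 pan-neuronal markers with Snap25 (2196 to 4519 CPM in control, 2905 to 5057 CPM in deltamethrin), 11 GABAergic markers with Gad1 (564 to 752 and 580 to 846 CPM) and 6 oligodendrocyte markers with Mbp (4058 to 6021 and 4271 to 6759 CPM) had median log2 fold changes of 0.03, -0.02 and -0.01. Astrocyte markers with Gja1 (5 genes, 259 to 469 and 314 to 614 CPM), microglial markers with Csf1r (5 genes, 86.9 to 164 and 119 to 178 CPM) and choroid plexus markers with Ttr (7 genes, 266 to 1286 and 247 to 723 CPM) had medians of 0.13, 0.05 and -0.12. At an unadjusted p under 0.05 by edgeR, 1 of 11 GABAergic and 1 of 5 astrocyte markers were higher, against 2% of all genes. At that threshold 1 of 5 microglial and 2 of 7 choroid plexus markers were lower, against 2.37% of all genes. Members were not correlated with the lists other than the striatal and cerebellar ones. Whether any cell type accounts for the members' values was not tested.

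The other genes of glutamatergic neurons were described from 6 lists holding 57 genes. After adjustment over all genes, 0 of them passed 0.05 by edgeR, and 3 had an unadjusted p-value under 0.05, against 4.37% of all genes. Upper-layer genes were mostly above 0, with 7 of 8 higher and a median log2 fold change of 0.08, beside 0.0014 over all genes. None had an unadjusted p-value under 0.05 by edgeR. The median was 0.048 with the mitochondrial rRNA covariate, and the list's median log2 CPM had an SD of 0.21 between control libraries. Genes of a list can vary together, and the counts of higher genes in the 6 lists were not tested. In this and the following lists the 2 genes highest in CPM, with no correction for length, are given as control and then deltamethrin means with their SD (n = 13 and n = 18). They were Pou3f3, a POU factor (91.1 ± 13.6 and 95.1 ± 10 CPM), and Cux1, a relative of Cux2 (84.4 ± 13.8 and 89.1 ± 16.2 CPM). Deep-layer genes were split, 7 of 13 higher with a median of 0.02, and Crym (82.4 ± 11.6 and 76.6 ± 13.8 CPM) was the highest. Next came Hs3st4 in control (66.7 ± 8.97 and 66.3 ± 6.86 CPM) and Etv1 in deltamethrin (63 ± 11.6 and 69 ± 15.8 CPM). Of 8 other pallial genes 4 were higher (median 0.01), with Camk2a, a kinase subunit of excitatory synapses, at 1322 ± 342 and 1421 ± 438 CPM and Nrgn at 731 ± 185 and 669 ± 122 CPM. Hippocampal genes had 3 of 7 higher (median -0.03), with Wfs1 at 45.2 ± 10.7 and 52.3 ± 17.7 CPM and Prox1, a factor of dentate granule cells, at 24.9 ± 6.47 and 27.1 ± 6.06 CPM.

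The subcortical list, which sits beside Slc17a6, had 8 of 11 genes higher with a median log2 fold change of 0.05. Lhx9, a homeobox factor of thalamic and other subcortical neurons, averaged 3.11 ± 0.778 CPM over control libraries (SD, n = 13) and 4.24 ± 1.1 CPM over deltamethrin libraries (SD, n = 18), with 34 to 249 counts per library. Its log2 fold change was 0.44 ± 0.14 (SE; edgeR unadjusted p = 0.00248, adjusted 0.813), with 15 of 18 deltamethrin libraries above the control median. Tcf7l2 had 0.31 ± 0.17 (SE; edgeR unadjusted p = 0.0722, adjusted 0.813). Ramp3, a receptor activity-modifying protein, averaged 25.2 ± 4.66 CPM over control and 21.5 ± 5.13 CPM over deltamethrin libraries, a log2 fold change of -0.23 ± 0.11 (SE; edgeR unadjusted p = 0.0422, adjusted 0.813). The highest of the list in CPM, Prkcd (54.9 ± 18.9 and 54.2 ± 16.1 CPM) and Plekhg1 (28.6 ± 8.41 and 29.6 ± 6.52 CPM), had log2 fold changes of -0.02 and 0.05.

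Among 10 genes that make, carry or take up glutamate, 8 were higher with a median log2 fold change of 0.08. For Gls2, a glutaminase, the means were 21 ± 2.46 and 19 ± 2.67 CPM, and the log2 fold change was -0.15 ± 0.07 (SE; edgeR unadjusted p = 0.0433, adjusted 0.813). The astrocytic uptake transporter Slc1a2 (1390 ± 324 and 1682 ± 845 CPM) and glutamine synthetase Glul (989.7 ± 222 and 1072 ± 199 CPM) differed between groups by less than 1 SD. The third vesicular transporter, Slc17a8, had 2.84 ± 0.751 and 2.71 ± 0.453 CPM.

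**Figure D5:**
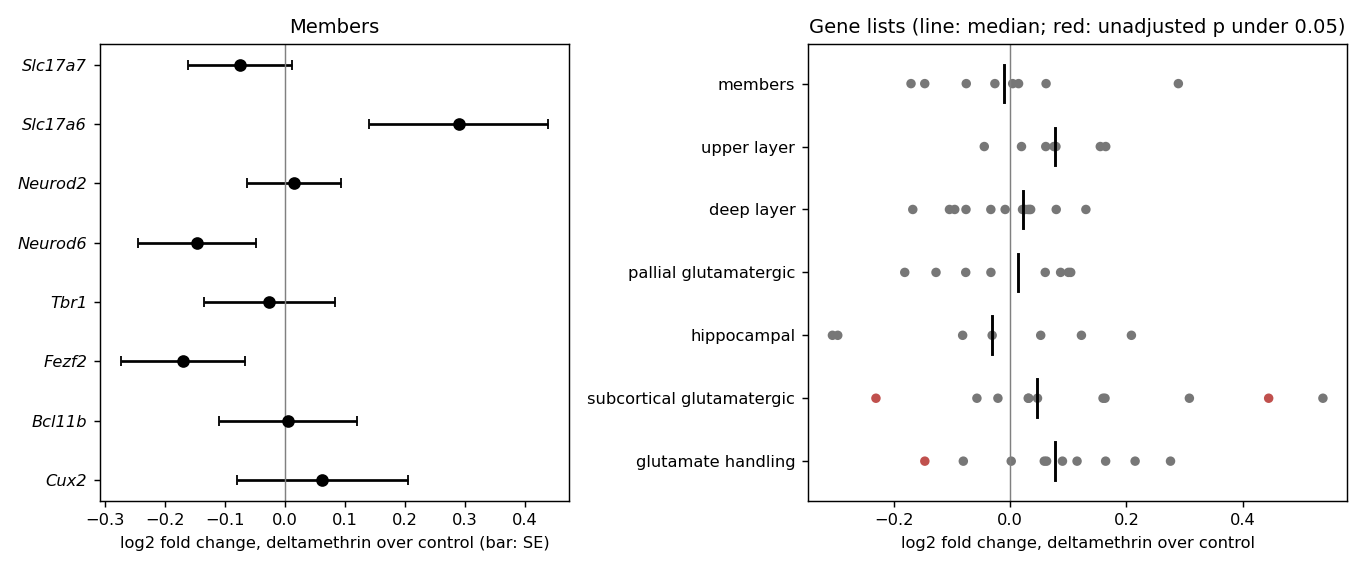
Left, log2 fold change of deltamethrin over control for each of the 8 genes, with its SE as a bar; right, log2 fold changes of the genes of each list (points), their median (line) and, in red, genes at an unadjusted p-value under 0.05. Slc17a6 lies farthest from 0 among the members at 0.29, and 3 list genes are red.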

How the data were processed

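Total RNA libraries of mouse brain, 13 control and 18 deltamethrin, were grouped by their agent label. Per the submitters' processing notes, Trimmomatic, HISAT2, SAMtools and MultiQC were used with the build GRCm38; the tool that counted reads, its annotation and its strand setting are not given in the sources used here. The authors deposited raw counts per Ensembl gene, with 17570311 to 38680621 counts per library, and 10581 of 48795 genes have no count. Each column was matched to a sample by its title. Genes were placed by Ensembl identifier on GENCODE M21 (GRCm38), and promoters came from RefSeq (GRCm38.p6). No exon of a member overlaps another gene's exon in M21.

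Genes were kept by filterByExpr of edgeR 4.0.16 (minimum count 10, minimum total 15, R 4.3.3), scaled by TMM and compared by its quasi-likelihood test, with robust dispersions and group as the one term, and p-values were adjusted over all genes by Benjamini-Hochberg. Log2 CPM used a prior count of 2. CPM per kilobase divided by the summed length of all annotated exons. The transporter ratio and the correlations were tested by two-sided permutation with 100000 resamples, adjusted over 28 member pairs or over 24 correlations with composition measures; the latter were added after seeing the data. The pipeline was tested on simulated data.

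The members and lists were chosen with earlier results of these data known. Named genes are the 8 members, the 5 genes most correlated with each transporter, the 2 genes highest in CPM of each of 6 context lists and up to 3 with an unadjusted p-value under 0.05, and the gene highest in CPM of each of 8 marker lists. Gpr6 and Slc17a8, and Etv1 beside Hs3st4 in the deep-layer list, were named after their values were seen. Alternatives were RLE, upper quartile and no factors, other count filters, DESeq2 1.42.0, limma voom (limma 3.58.1), robust=FALSE, covariates, omission of the mitochondrial rRNA genes, other prior counts and leaving out each library.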

Additional observations from a re-analysis of the deposited data

How the results depend on the processing

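No member and no gene passed an adjusted p-value of 0.05 under any of 11 alternative fits or 31 fits that each left out 1 library. The count of genes with an unadjusted p-value under 0.05 was 853, against 1948 with no count filter (38214 genes tested) and 1796 with the mitochondrial rRNA covariate. Leaving out 1 library gave 526 (control replicate 10) to 1389 (deltamethrin replicate 9), and also left the 1.5-fold range without control replicates 4 (1338), 7 (1346) and 11 (560) and deltamethrin replicates 3 (552), 8 (1383) and 10 (1283). Slc17a6 had an unadjusted p-value under 0.05 with upper quartile factors (0.0478), limma voom (0.0443) and the mitochondrial rRNA covariate (0.0202), and in 10 of the 31 fits, over all of which its log2 fold change was 0.23 to 0.36. Fezf2 did so in 1 fit, without deltamethrin replicate 14 (-0.21, edgeR unadjusted p = 0.0434). Bcl11b changed sign with limma voom (-0.0024), the mitochondrial rRNA covariate (-0.042) and the title number covariate (-0.0064), Tbr1 without scaling factors (0.011) and Neurod2 with the mitochondrial rRNA covariate (-0.0039). Leaving out 1 library gave -0.044 to 0.054 for Bcl11b, -0.078 to 0.022 for Tbr1, -0.024 to 0.055 for Neurod2 and -0.0014 to 0.12 for Cux2; the cause was not tested. The transporter ratio difference ran from -0.43 to -0.28 when 1 library was left out, and 2 alternatives added after seeing the data, without the 2 libraries under 150 CPM of cerebellar markers (-0.31, permutation p = 0.0839) and with the cerebellar covariate (-0.27, permutation p = 0.104), passed no threshold. The number of correlated pairs was 13, from 13 to 18 under 4 alternatives and 11 to 17 without 1 library. The correlation of Slc17a7 with Slc17a6 was 0.425 without scaling factors and -0.218 to 0.0682 without 1 library. No paired analysis was possible because numbers given in sample order pair nothing. The members had 227 or more counts in every library.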
